A study of Mus musculus with 1 sample.

Results

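Integrins are the receptors by which cells hold on to the extracellular matrix and to each other, and 10 of their subunit genes were followed here through the cells of MC38 tumors. The genes were given as a list, which was made with earlier results of these data known. They are the α subunits Itga4, Itga5, Itga6, Itgal, Itgam, Itgav and Itgax and the β subunits Itgb1, Itgb2 and Itgb3, 10 of the 32285 genes in the count table. All 10 were detected in the kept cells, from 64 UMIs (distinct captured transcript molecules) for Itgb3 to 19953 for Itgb1. MC38 is a mouse colon carcinoma line, and the tumors came from C57BL/6J mice, which the methods describe in general as female and 4 to 6 weeks old when bought. Tumors of 5 control mice had been mixed in equal proportions and sequenced as 1 library with 10x Genomics 3' v3.1 chemistry. The genotype label reads WT and names no shRNA, so the library was taken as the shNTC pool, the non-targeting control of the study, and the Atp6v0a1 knockdown pool was not analysed here. With 1 library and no record of the mouse behind each cell there were no replicates, so no test between conditions or mice was possible and no p-value is given.

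An integrin is a pair of 1 α and 1 β chain, and the pair sets which ligand is bound. Itgb2 pairs with Itgal (the pair LFA-1), Itgam (CD11b, Mac-1) and Itgax (CD11c) on leukocytes, which use them to bind ICAMs and complement fragments. Itgb1 pairs with Itga4 (VLA-4, a receptor of VCAM-1 and fibronectin), Itga5 (fibronectin) and Itga6 (laminins), while Itgav pairs with Itgb1, Itgb3 and other β chains to bind ligands such as vitronectin and latent TGF-β. In tumors, Itgam and Itgax are the usual surface markers of myeloid and dendritic cells, and Itgb1 is the β chain that most adherent cells use on matrix.

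On the GRCm38 genome (GENCODE M21 annotation), the partners of Itgb2 lie on 1 chromosome. Itgal (ENSMUSG00000030830) is on chromosome 7 from 127296260 to 127335138, Itgam (ENSMUSG00000030786) from 128062640 to 128118491 and Itgax (ENSMUSG00000030789) next to it from 128129547 to 128150657. Itgb2 itself (ENSMUSG00000000290) is on chromosome 10 from 77530252 to 77565708, Itgb1 (ENSMUSG00000025809) on chromosome 8 from 128685654 to 128733200 and Itgb3 (ENSMUSG00000020689) on chromosome 11 from 104608000 to 104670476. Chromosome 2 holds Itga6 (ENSMUSG00000027111, 71745616 to 71858416), Itga4 (ENSMUSG00000027009, 79255426 to 79333123) and Itgav (ENSMUSG00000027087, 83724397 to 83806916), and chromosome 15 holds Itga5 (ENSMUSG00000000555, 103344286 to 103366763, on the minus strand). These are whole genes, all on the plus strand but for Itga5, and the counts came from their 3' ends.

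The 3 promoters printed next belong to genes at opposite ends of the results, the neighbors Itgam and Itgax, which were far higher in myeloid-like than in tumor cells, and Itgb1, which was found in every group. They are RefSeq sequences of GRCm38.p6, plus strand, 250 bases before to 50 after the annotated start, at chr7:128062390-128062689, chr7:128129300-128129599 and chr8:128685404-128685703. Capitals mark the core of the PU.1 motif (GAGGAA, PU.1 being the leading transcription factor of myeloid cells) and the GC box (GGGCGG, bound by Sp factors), each on either strand.
Itgam: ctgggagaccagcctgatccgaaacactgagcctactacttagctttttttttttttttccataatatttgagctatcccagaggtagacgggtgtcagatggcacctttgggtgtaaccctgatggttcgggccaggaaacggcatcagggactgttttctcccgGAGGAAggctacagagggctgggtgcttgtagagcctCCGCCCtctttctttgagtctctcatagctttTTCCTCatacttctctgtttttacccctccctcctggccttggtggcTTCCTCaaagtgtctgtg
Itgax: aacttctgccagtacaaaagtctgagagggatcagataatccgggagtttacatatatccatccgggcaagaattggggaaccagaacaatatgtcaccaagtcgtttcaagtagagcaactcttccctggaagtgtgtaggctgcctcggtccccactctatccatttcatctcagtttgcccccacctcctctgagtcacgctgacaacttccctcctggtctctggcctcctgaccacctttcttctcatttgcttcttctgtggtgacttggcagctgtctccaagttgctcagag
Itgb1: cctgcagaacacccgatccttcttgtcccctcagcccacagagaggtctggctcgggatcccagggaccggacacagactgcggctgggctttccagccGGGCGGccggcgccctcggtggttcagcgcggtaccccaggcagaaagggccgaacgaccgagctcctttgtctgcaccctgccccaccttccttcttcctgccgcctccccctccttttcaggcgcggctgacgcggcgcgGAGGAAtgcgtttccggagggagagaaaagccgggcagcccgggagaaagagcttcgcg
Of the 10 members 6 had a RefSeq promoter entry here (Itga4, Itga5, Itgam, Itgav, Itgax and Itgb1). The PU.1 core stood in 4 of the 6, with 3 matches in Itgam, 2 in Itgav and 1 each in Itga5 and Itgb1, against 28.3% of all 32851 promoters of this length. The GC box stood in 5 of the 6, all but Itgax, against 35.7% of all promoters. The Itgam and Itgax promoters held 6 and 5 CG dinucleotides and the Itgb1 promoter 27, with a median of 7 over all promoters. A match of letters is a description and shows no binding.

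The library held 106631000 UMIs in 5307 called cells, 511 to 231902 per cell, and 4443 cells with a median of 10411 UMIs were kept after 667 cells with over 20% mitochondrial UMIs and 197 likely doublets had been removed. The cells were clustered without any of the 31 integrin genes of the annotation, so no member shaped the groups in which it was measured. Tumor cells (1834 cells, median 38609 UMIs) were told by Rhox5 at 696 CPM (UMIs per 1000000 UMIs of the group) and Shisal2b at 211 CPM, with the leukocyte gene Ptprc at 2.14 CPM. The label calls the cell type epithelial, yet the tumor cells had 0 UMIs of the keratin gene Krt18 and 0.197 CPM of Cdh1, the epithelial cadherin. The other groups were 1780 myeloid-like (median 8176 UMIs), 110 T and NK-like (5285.5), 98 fibroblast-like (1039), 44 granulocyte-like (711.5) and 33 endothelial-like cells (923), and 544 cells (871) met no marker list and were not named. The names are rebuilt from marker lists and can differ from those of the study, and the depth of the groups differed as given. Intervals in brackets are exact 95% intervals that cover counting error only.

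The leukocyte integrins were low in tumor cells, whereas Itgb1 was found in every group. In the tumor cells, in CPM, Itgb1 was at 221 [217, 224] (16814 UMIs), Itga5 at 48.6 [47.1, 50.2] and Itgav at 45.4 [43.9, 47.0]. The remaining members were at 6.38 CPM (Itgb2) or less in tumor cells, and Itgb3 had 5 UMIs in all of them. The myeloid-like cells carried Itgam at 292 CPM [284, 300] and Itgb2 at 249 [242, 257], together with Itgax at 124, Itgal at 82.0, Itga6 at 59.2 and Itga4 at 51.6. They also had Itgb1 at 162, Itga5 at 46.9 and Itgav at 45.8 CPM. In the T and NK-like cells Itgb2 was at 200 CPM [168, 235], Itgal at 123 [99.2, 152] and Itga4 at 105 [83.1, 132], while Itgam had 5 UMIs. Itgb1 at 176 CPM and Itgav at 115 CPM were found in these lymphocytes too. In the fibroblast-like cells Itgb1 was at 356 CPM [309, 409], Itga5 at 89.1 [66.1, 117] and Itgb3 at 28.5 [16.3, 46.3], and the leukocyte chain Itgb2 had 4 UMIs. Each value is a level of 1 gene in 1 group, and levels are compared here between groups and not between genes, since a 3' count depends on how well each transcript is captured.

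**Figure D1:**
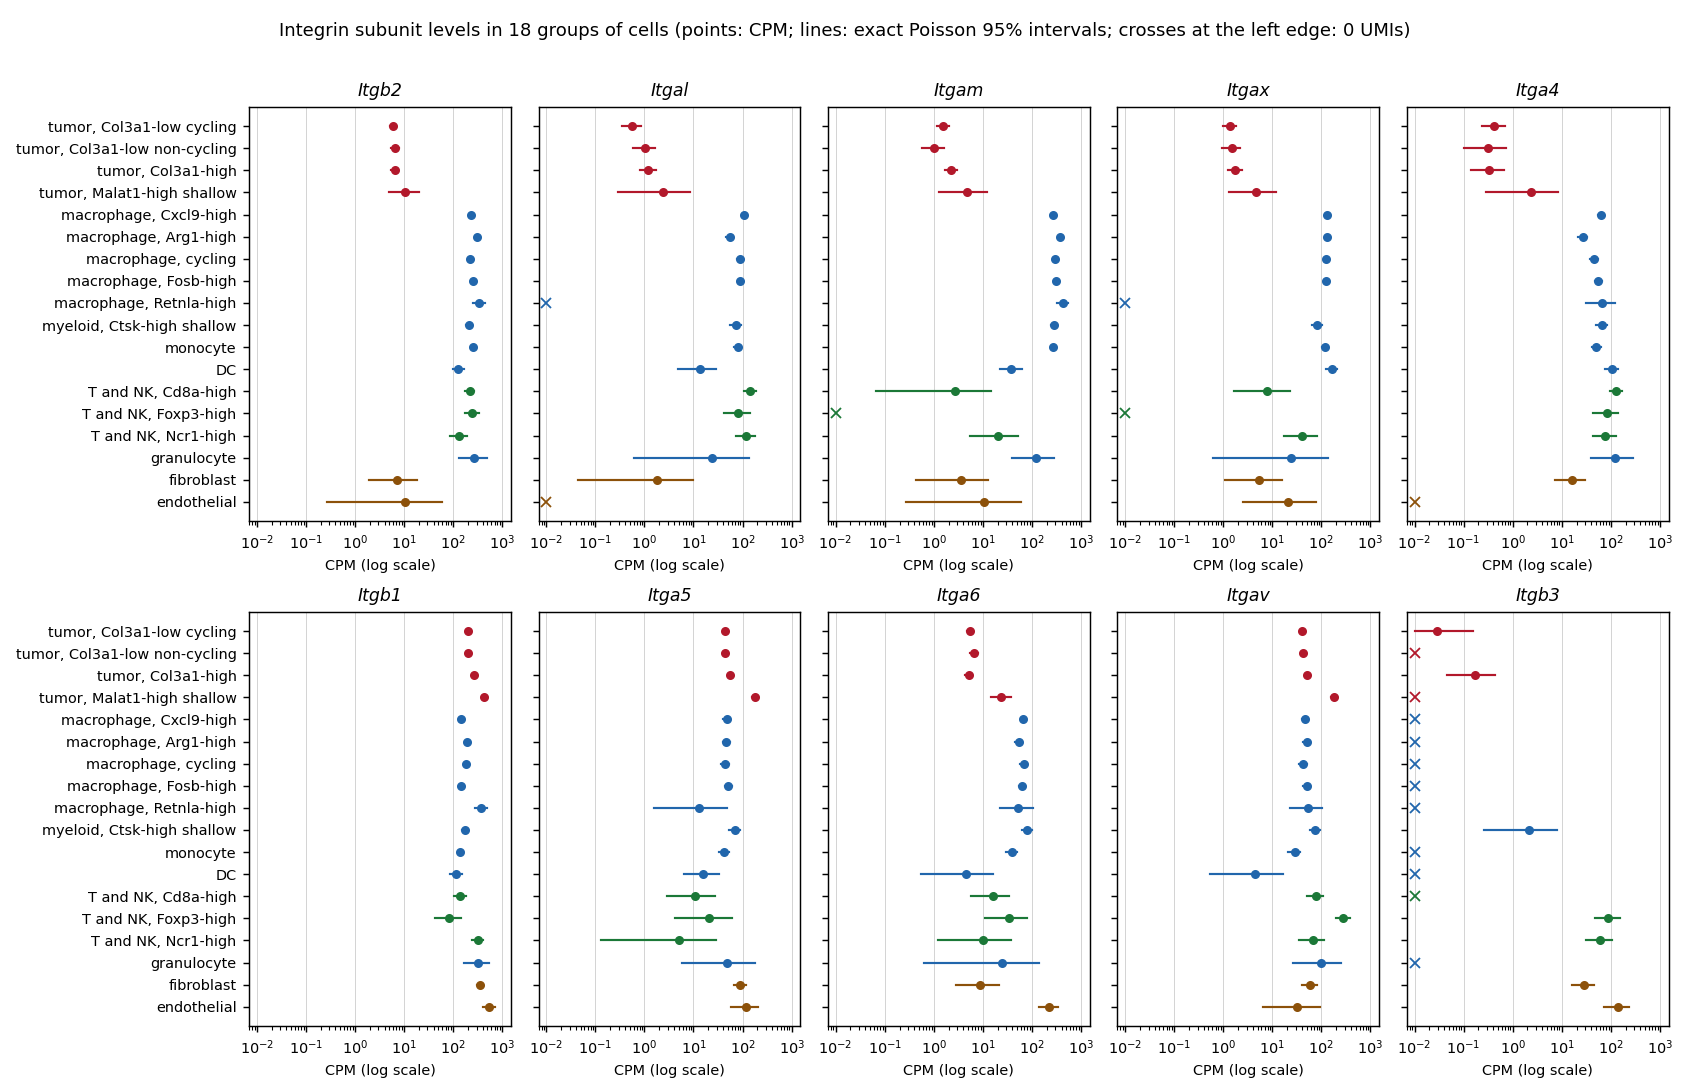
Level of each member in 18 groups of cells, as UMIs per 1000000 UMIs on a log axis, with points for the level, lines for exact Poisson 95% intervals and crosses at the left edge for 0 UMIs. Itgb2 lies between 128 and 336 CPM in each leukocyte group and at 10.6 CPM or less in each tumor, fibroblast-like and endothelial-like group.

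The question behind the first comparison is which integrins separated the myeloid-like cells from the tumor cells they were mixed with. A member was called when its ratio was at least 2 in either direction with an interval that did not include 1, in pairs with at least 20 UMIs. Of the 9 members with enough UMIs 6 were higher in the myeloid-like cells and 0 lower, while of all 13765 genes tested 21.1% were higher and 25.6% lower. The median log2 ratio was 5.29 over these members and -0.24 over all genes tested.

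The leukocyte chains led this contrast. Itgam was 172 times [145, 207] as high in myeloid-like as in tumor cells, and its partner Itgb2 39.1 times [35.6, 43.0]. Itgal was 93.3 times [73.0, 121] and Itgax 80.2 times [66.5, 97.4] as high. Itga4, the VLA-4 α chain, was at 51.6 against 0.394 CPM (827 and 30 UMIs), a ratio of 131 [91.0, 195]. The laminin receptor chain Itga6 was at 59.2 against 5.84 CPM, a ratio of 10.1 [9.05, 11.4]. The matrix receptor chains did not follow: Itga5 had a ratio of 0.964 [0.891, 1.04] and Itgav of 1.01 [0.930, 1.09], both with intervals that include 1. With each cell thinned to 1000 UMIs the 6 calls held, on few tumor UMIs. Itgal was then 24.7 times [11.1, 68.3] and Itgax 19.3 times [10.3, 40.9] as high, and Itgam 546 times [97.6, 21613] on 1 tumor UMI. Itga4 had 103 against 0 UMIs after thinning, with a lower limit of the ratio of 28.6. Itgb1 was a little lower, 162 CPM in the myeloid-like and 221 CPM in the tumor cells, with a ratio of 0.735 [0.705, 0.766].

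RNA set free by broken cells is picked up in every droplet, so low levels in tumor cells were read beside genes that tumor cells should lack. The macrophage genes Lyz2, C1qa, Cd68 and Tyrobp stood in tumor cells at 0.502% to 0.646% of their myeloid-like level. Itgam stood at 0.580% [0.483, 0.691], within that range, and Itga4 at 0.764% [0.512, 1.10], above it with an interval that reaches into it, so neither could be told apart from the level of these genes. Itgal at 1.07%, Itgax at 1.25% and Itgb2 at 2.56% [2.32, 2.81] lay above the range, and Itga6 at 9.86% [8.79, 11.05] lay far above it. In the opposite direction, the tumor genes Rhox5 and Shisal2b stood in myeloid-like cells at 6.28% and 8.13% of their tumor level, against 73.5% for Itgb1, 96.4% for Itga5 and 101% for Itgav, so these 3 members were well over that background in myeloid-like cells. In 1 tumor subcluster of 33 cells led by Gzmf, with Cd74 and Fcer1g among its leading genes, Itgb2 was at 22.3 CPM and Itgam at 21.3 CPM, whereas Itgb2 was at 3.91 to 10.6 CPM in the other 8 tumor subclusters. Whether unremoved doublets or taken-up RNA have a part in these values was not tested.

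**Figure D2:**
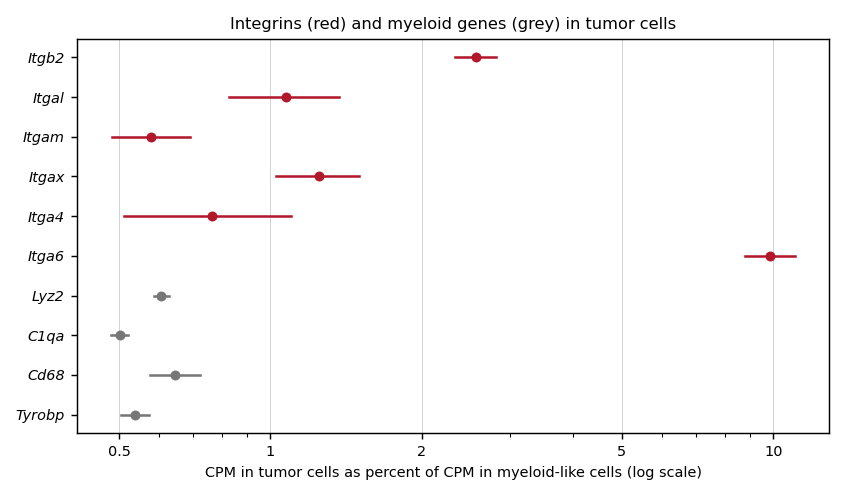
Level in tumor cells as a percentage of the level in myeloid-like cells on a log axis, for 6 members (red) and 4 myeloid genes (grey), with exact 95% intervals. Itgam at 0.580% lies among the myeloid genes, and Itgb2 at 2.56% and Itga6 at 9.86% lie to their right.

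Counted by cells, at least 1 UMI of Itgb1 was found in 90.6% of the tumor cells and of Itgam in 82.0% of the macrophage-like cells, but tumor cells were several times deeper. With each cell thinned to 1000 UMIs, which left out 10 tumor cells and 1 macrophage-like cell, these shares were 21.2% and 26.1%. The share for Itgb2 in tumor cells was 18.8% before thinning (median 38609 UMIs) and 0.548% after it, against 79.5% (median 10070 UMIs) and 22.3% in macrophage-like cells. Itga4 was found in 29 of 1834 tumor cells before thinning and in 0 of 1824 after it, which allows a share with a UMI at that depth of up to 0.164%, against 4.90% of the thinned macrophage-like cells.

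Tumor cells formed a Col3a1-high group of 747 cells (Col3a1, a fibrillar collagen gene, at 2175 CPM, median 30190 UMIs) and a Col3a1-low group of 959 cells (675 CPM, median 53266 UMIs). Of 9 members tested between them 0 were called higher and 0 lower, against 7.11% and 4.12% of 12803 genes. Before thinning, the 3 matrix receptor chains were higher in the Col3a1-high cells, below 2-fold. Itgb1 was at 261 against 198 CPM, a ratio of 1.32 [1.28, 1.36], Itgav at 51.4 against 40.4 CPM, 1.27 [1.18, 1.36], and Itga5 at 54.9 against 43.5 CPM, 1.26 [1.18, 1.35]. With cells thinned to 1000 UMIs, the ratio was 1.6 [1.31, 1.97] for Itgb1, 1.1 [0.702, 1.71] for Itgav and 0.974 [0.640, 1.47] for Itga5, the last 2 with intervals that include 1. The median ratio over the tested members was 0.34 in log2, against 0.08 over all genes. Itgam had a ratio of 1.63 [1.12, 2.36] and Itgal of 1.73 [1.02, 2.90], on 54 and 29 UMIs in the Col3a1-high cells, levels of 2.25 and 1.21 CPM. The macrophage genes Lyz2 (54.5 against 36.9 CPM) and C1qa (47.2 against 28.8) were higher in the same cells as well, and their part in these ratios was not tested. The Gzmf-led tumor subcluster (33 cells) held 20 Itgam and 8 Itgal UMIs. How these UMIs fall between the Col3a1-high and Col3a1-low cells, and their part in the ratios, was not tested. Itga6, at 5.13 and 5.88 CPM, had a ratio of 0.874 [0.703, 1.08].

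Other integrin subunits and integrin ligands moved further than the members in this contrast. Of 16 other subunits 11 were tested and 6 were higher and 0 lower, and of 25 ligands 16 were tested and 8 were higher and 0 lower. Of 24 tested adaptors and partners 0 were called in either direction, and of all genes 7.11% were higher and 4.12% lower. Ligand genes, unlike integrin genes, were not left out of the clustering. Fn1, a listed ligand, was among the leading genes of the tumor cluster that Col3a1 also led, so the ligand counts are not independent of how the groups were formed. Itgb5, a β chain that pairs with Itgav, was at 60.2 against 21.9 CPM, a ratio of 2.74 [2.54, 2.97]. Itgb4, the β chain that pairs with Itga6 on laminin, was at 22.1 against 10.2 CPM, 2.16 [1.91, 2.44]. The largest ratios were those of Itga2b, 4.29 [2.66, 7.08], and of the complement gene C3, a source of Itgam ligands, 5.04 [4.07, 6.28].

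The members were nearly level between cycling and other Col3a1-low cells. Of these cells 670 were in subclusters raised in mitotic genes and 289 were not, and 1 of the subclusters without them was led by S-phase genes (Ung, Cdc6, Mcm5). Itgb1 was at 198 CPM in both, a ratio of 0.998 [0.956, 1.04], and Itga5 had a ratio of 1.02 [0.933, 1.12]. Across the 9 tumor subclusters, however, Itgb1 ranged from 100 CPM [93.6, 108] in the subcluster led by Ube2c, a mitotic gene, to 433 [389, 479] in a shallow one led by Malat1. Between these ends it was at 178 in the Ung-led, 207 in the Gzmf-led, 220 in the Hist1h1b-led, 230 in the Cenpf-led, 237 in the Krt16-led, 272 in the Ogn-led and 296 CPM in the Col1a1-led subcluster.

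The Ube2c-led subcluster stood apart from the other cycling cells. Its median depth was 29742 UMIs, against 53249 and 65391 in the Cenpf-led and Hist1h1b-led subclusters. Within the Col3a1-low cycling cells, Itgb1 was at 100 against 226 CPM, a ratio of 0.446 [0.413, 0.480], and Itga6 at 2.05 against 6.47 CPM, 0.316 [0.177, 0.528]. Itga5 had a ratio of 0.554 [0.476, 0.641] and Itgav of 0.715 [0.620, 0.823]. Of 8 members tested 3 were lower (Itgb1, Itga6 and Itgam, the last on 5 UMIs) and 0 higher, while 19.2% of 11761 genes were lower and 0.247% higher. The median ratio was -0.83 in log2 over the tested members and -0.43 over all genes, so most genes were lower here. With thinned cells Itgb1 stayed lower, at 0.381 [0.217, 0.632]. Itga5 was then at 0.426 [0.145, 1.04] and Itgav at 0.825 [0.338, 1.84], both with intervals that take in equal levels. Itga6 had 0 against 4 UMIs, with an upper limit of the ratio of 3.33, and Itgam had 0 in both. The part of depth in the lower levels over all genes was not tested.

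**Figure D3:**
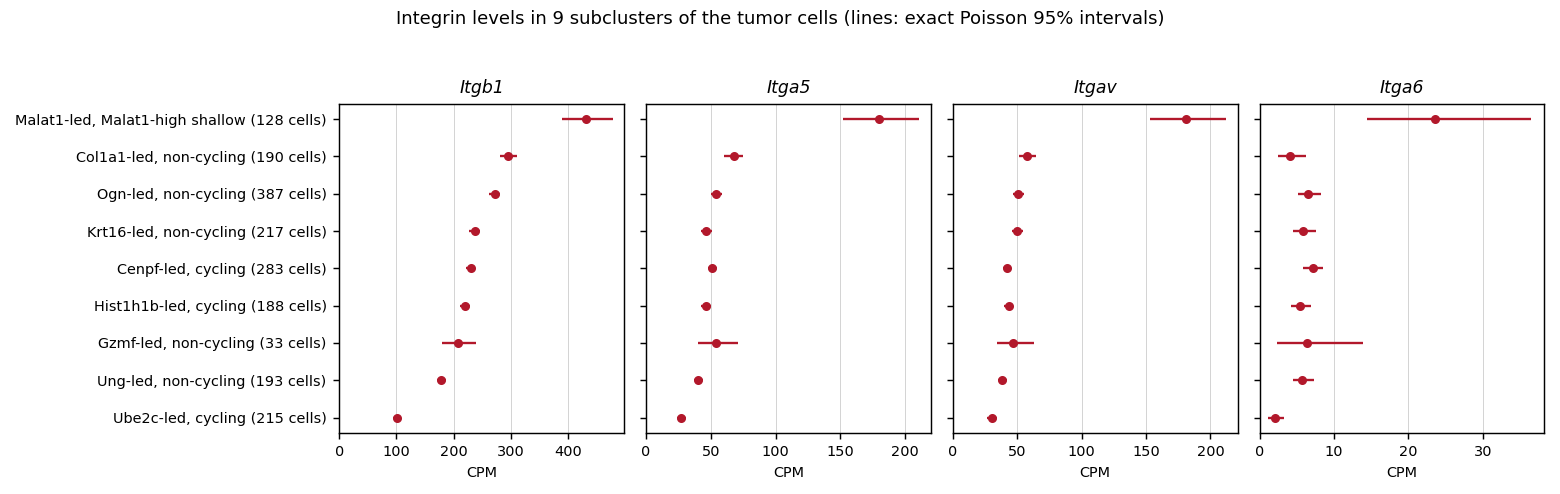
Member levels in CPM in the 9 tumor subclusters, on linear axes from 0, with exact Poisson 95% intervals. Itgb1 is lowest in the Ube2c-led subcluster (100 CPM) and highest in the shallow Malat1-led one (433 CPM).

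The shallow Malat1-led tumor subcluster held 128 cells with a median of 4349 UMIs, a median mitochondrial share of 7.90% and Malat1, a nuclear RNA, at 56415 CPM. Of 9 members tested 3 were higher there than in the other tumor cells and 0 lower, but so were 32.9% of 12860 genes, with 4.07% lower. Itgav was at 181 against 43.9 CPM, a ratio of 4.12 [3.48, 4.84], Itga5 at 180 against 47.1 CPM, 3.81 [3.22, 4.48], and Itga6 at 23.6 against 5.64 CPM, 4.19 [2.53, 6.55]. Itgb1 had a ratio of 1.98 [1.78, 2.20], which 4 of 13 alternatives put past 2-fold, over a range of 1.44 to 2.25. The median was 1.64 in log2 over the tested members and 0.86 over all genes. Itga5 and Itgav were also higher in the shallower tumor cells, at 68.3 and 53.3 CPM in the 917 cells at or under the median depth. They were at 43.2 CPM each in the 917 deeper ones, and Itgb1 was at 246 and 214 CPM. The shallower cells include cells of the Malat1-led subcluster, whose part in these levels was not taken out. What the depth and the mitochondrial share contribute to these differences was not tested.

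The macrophage-like cells formed 6 subclusters, of which a Dnase1l3-led (268 cells) and an Ifit3-led one (160 cells) made up the Cxcl9-high cells (428), beside Arg1-high (248), cycling (176), Fosb-high (329) and Retnla-high cells (24). Itgam was at 263 CPM [247, 279] in the Cxcl9-high, 289 [268, 311] in the cycling, 303 [284, 322] in the Fosb-high and 370 [349, 392] in the Arg1-high cells. Itgal was lowest among these 4 states in the Arg1-high cells, at 54.5 CPM [46.7, 63.3], against 89.9 in the cycling, 89.8 in the Fosb-high and 107 [97.1, 118] in the Cxcl9-high cells. The 2 Cxcl9-high subclusters were unlike each other: Itgax was at 154 CPM [140, 170] in the Dnase1l3-led and 84.1 [68.5, 102] in the Ifit3-led cells, and Itgal at 116 [103, 130] and 87.4 [71.5, 106]. Itgax was at 125 to 130 CPM in the cycling, Fosb-high and Arg1-high cells.

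Arg1-high cells are named for the arginase gene of wound-type macrophages. Itga4 was at 26.9 CPM in them and at 55.9 CPM in the other macrophage-like cells, a ratio of 0.482 [0.379, 0.607], the 1 call among 9 members tested, all lower calls being 8.43% and all higher calls 2.22% of 10967 genes. That call rests on a ratio next to the limit of 2-fold: 11 of 15 alternatives gave another call, with ratios of 0.441 to 0.748. Itga4 was also at 68.0 CPM in the shallower macrophage-like cells (median 6490 UMIs) and 40.6 CPM in the deeper ones (13662), and the Arg1-high cells were deep (12263). Itgal had a ratio of 0.571 [0.483, 0.673], and Itgam, Itgb2 and Itgb1 were higher below 2-fold, at 1.3 [1.21, 1.39], 1.29 [1.2, 1.39] and 1.2 [1.09, 1.32].

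The mix of Itgb2 partners differed between macrophage states. Per 100 Itgb2 UMIs there were 45.3 Itgal UMIs [40.3, 50.9] in the Cxcl9-high cells and 17.7 [14.9, 20.8] in the Arg1-high cells, with 32.1 [26.4, 38.8] in the monocyte-like cells. For Itgam the figures were 111 [102, 122] in the Cxcl9-high and 120 [110, 131] in the Arg1-high cells, with intervals that overlap. Across single macrophage-like cells, Itgb2 was found in 83.3% of those with an Itgam UMI (median depth 10752.5) and in 62.2% of those without (6232), 2 sets that also differ in depth.

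The 24 Retnla-high cells, with Lyve1 and Folr2 among their leading genes, had Itgam at 422 CPM [325, 539] and Itgb1 at 376 CPM [285, 487]. Itgb1 was 2.30 times [1.74, 2.99] its level in the other macrophage-like cells. The median ratio was 0.15 in log2 over the tested members and 0.63 over all genes, so most genes were higher in these cells. Itgal and Itgax each had 0 UMIs among the 151656 of these cells, against 86.4 and 129 CPM in the other macrophage-like cells, with upper limits of the ratio of 0.282 and 0.189.

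**Figure D4:**
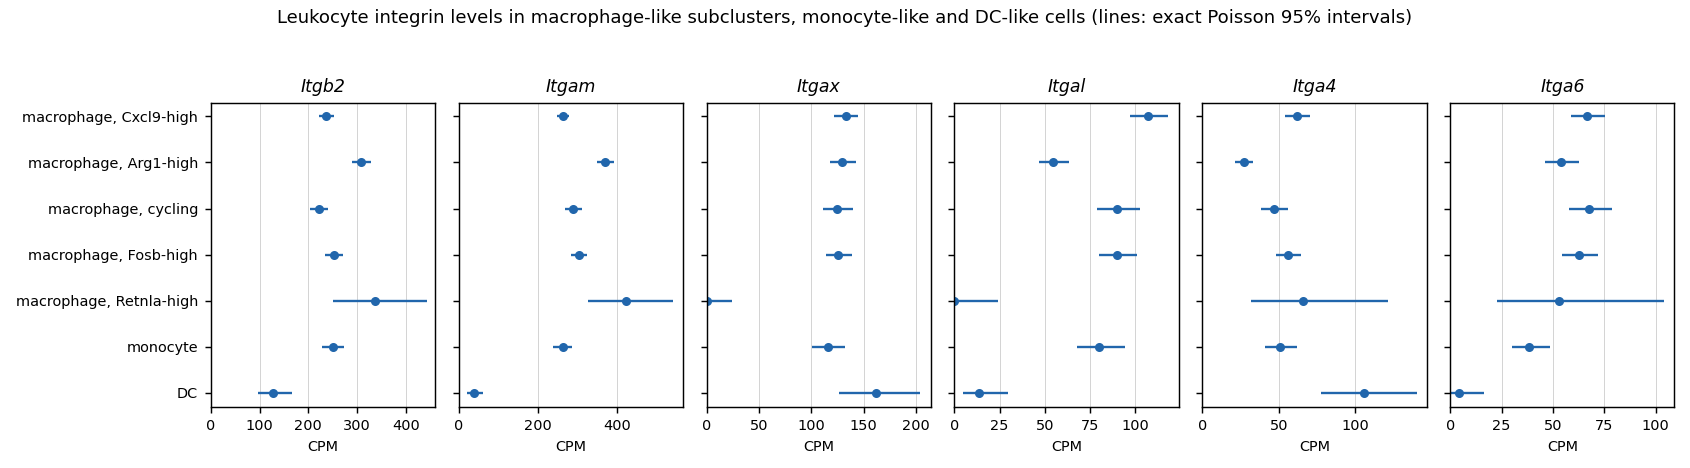
Levels in CPM of the leukocyte integrins in the macrophage-like subclusters, the monocyte-like and the DC-like cells, on linear axes from 0 with exact Poisson 95% intervals. Itgam is at 263 CPM in Cxcl9-high and 370 CPM in Arg1-high cells and Itgal at 107 and 54.5 CPM, and the DC-like cells have the highest Itgax (162 CPM) and low Itgam (38.2 CPM).

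Monocyte-like cells (240 cells, median 5790 UMIs, with Ly6c2 and Ccr2) were set beside the macrophage-like cells (1205, median 10070 UMIs) to see which integrins change between the states. The macrophage gene C1qa was found in both, at 4005 CPM in the monocyte-like and 7966 CPM in the macrophage-like cells. Of 9 members tested 0 were higher and 0 lower, while 1.59% and 5.85% of 11140 genes were. Itgb2 had a ratio of 0.975 [0.882, 1.08], Itgal of 0.938 [0.783, 1.12], Itga4 of 1.04 [0.824, 1.29] and Itgax of 0.910 [0.784, 1.05], all with intervals that include 1. Itga6 was at 38.4 against 62.6 CPM, a ratio of 0.613 [0.472, 0.785], and Itgav at 28.4 against 47.6 CPM, 0.596 [0.439, 0.793], both lower without reaching 2-fold. Itgam had a ratio of 0.857 [0.777, 0.943]. The median over members was -0.15 in log2 and over all genes -0.12.

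The 52 DC-like cells (median 7895 UMIs), with the dendritic cell genes Ccr7, Ccl17 and Ccl22 among those leading them, had another integrin set than the macrophage-like cells. Of 9 members tested 1 was higher and 5 were lower, where 6.25% and 7.68% of 11073 genes were. Itgam was at 38.2 against 306 CPM, a ratio of 0.125 [0.0727, 0.200], Itgal at 13.5 against 85.4 CPM, 0.158 [0.0578, 0.345], and Itga5 at 15.7 against 47.0 CPM, 0.335 [0.134, 0.694]. Itga6 and Itgav had 2 UMIs each, with ratios of 0.0718 [0.00868, 0.260] and 0.0944 [0.0114, 0.342]. Itga4 was the higher one, at 106 against 48.8 CPM, 2.16 [1.57, 2.91]. Itgax, the marker chain of dendritic cells, was at 162 against 127 CPM, a ratio of 1.27 [0.991, 1.61], while Itgb2 was at 128 against 256 CPM, a ratio of 0.5001 [0.378, 0.650] that 7 of 14 alternatives put past the limit, so there were 126 Itgax UMIs [88.0, 182] per 100 of Itgb2 in the DC-like and 49.7 [46.8, 52.7] in the macrophage-like cells. The median over members was -1.58 in log2, against 0.09 over all genes. Alternatives changed the Itga4 call in 3 of 14 cases, with ratios of 1.25 to 3.38. With cells thinned to 1000 UMIs, which left 51 DC-like cells, 4 of the 5 lower calls were lost and that of Itgam held, at 0.309 [0.0998, 0.727]. Itga5 turned to 1.12 [0.226, 3.44] on 3 UMIs, and Itgav was at 0.337 [0.00842, 1.94] on 1. Itga6 and Itgal had 0 UMIs, with upper limits of the ratio of 1.14 and 0.896, so for Itga6 a ratio of 1 was within the interval.

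T and NK-like cells were told by Cd3e at 481 CPM and fell into Cd8a-high (53 cells, Cd8a at 1103 CPM), Foxp3-high (40 cells, Foxp3 at 301 CPM and Cd4 at 184 CPM) and Ncr1-high cells (17 cells, Ncr1 at 382 CPM). Against the myeloid-like cells 10 members were tested, of which 3 were higher and 4 lower, where 10.4% and 12.3% of 11616 genes were. Itgb3 was higher with 25 against 2 UMIs, a ratio of 278 [69.4, 2423]. Itgav had a ratio of 2.51 [1.98, 3.16] and Itga4 of 2.05 [1.60, 2.59], the latter under 2-fold in 2 of 15 alternatives. Itgam (0.0238 [0.00771, 0.0555]), Itgax (0.123 [0.0613, 0.220]), Itga5 (0.237 [0.102, 0.469]) and Itga6 (0.305 [0.162, 0.523]) were lower. Itgb1 had a ratio of 1.09 [0.902, 1.3], Itgb2 of 0.801 [0.674, 0.946] and Itgal of 1.51 [1.2, 1.87]. With thinned cells Itgal turned to 0.791 [0.313, 1.67] on 7 UMIs in the T and NK-like cells, and the lower calls of Itga5 and Itga6 were lost, at 0.328 [0.0391, 1.22] and 0.623 [0.167, 1.65]. Itgb3 then had 1 UMI against 0, too few for a call, with a lower limit of the ratio of 0.412. The higher calls of Itgav and Itga4 held, at 2.98 [1.69, 4.96] and 2.34 [1.26, 4.04]. Before thinning, Itga4 was at 189.5 CPM [133, 261] in the shallower T and NK-like cells (median 3561 UMIs). It was at 74.2 CPM [52.8, 101] in the deeper ones (7679), against 51.6 CPM in the myeloid-like cells (8176). For Itgav the intervals of the shallower and deeper cells overlapped. The part of depth in the Itga4 ratio was not tested other than by thinning. The medians in log2 were -0.10 over members and 0.09 over all genes.

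Within the lymphocytes Itgav and Itgb3, the 2 chains of the vitronectin receptor, were concentrated in some groups. Itgav was at 280 CPM [201, 380] in the Foxp3-high cells (41 UMIs in 20 of 40 cells), 76.7 [51.4, 110] in the Cd8a-high and 66.1 [35.2, 113] in the Ncr1-high cells. The Foxp3-high level was 3.65 times [2.21, 6.09] that of the Cd8a-high cells. Itgb3 had 13 UMIs in the Foxp3-high cells (88.8 CPM [47.3, 152], in 8 cells), 12 in the Ncr1-high cells (61.1 CPM [31.5, 107], in 6 cells) and 0 in the Cd8a-high cells. With 3 counts put in place of that 0, the ratio of Foxp3-high to Cd8a-high cells was 11.2, which is not a lower limit. Of the 20 Foxp3-high cells with an Itgav UMI 20% also had an Itgb3 UMI, the same share as among the 20 without. Rhox5 and Shisal2b stood in the T and NK-like cells at 6.78% and 11.2% of their tumor level, while Itgav stood at 254%.

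Among the named T and NK-like groups, the LFA-1 and VLA-4 α chains were highest in the Cd8a-high cells. Itgal was at 143 CPM [107, 186] and Itga4 at 130 [95.9, 171] there. The Foxp3-high cells (82.0 CPM each on 12 UMIs) had ratios to the Cd8a-high cells with intervals that include 1, 0.574 [0.279, 1.09] and 0.632 [0.306, 1.21]. Itgb1 was at 315 CPM [242, 404] in the Ncr1-high cells, 140 [105, 183] in the Cd8a-high and 82.0 [42.4, 143] in the Foxp3-high cells.

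Fibroblast-like cells (98 cells, Col3a1 at 11713 CPM, median 1039 UMIs) shared the matrix receptor chains with the tumor cells and also had Itgb3. Of 10 members tested 2 were higher than in tumor cells and 0 lower, where 15.8% and 4.72% of 13050 genes were. Itgb3 was at 28.5 against 0.0656 CPM, with 16 UMIs in 10 of 98 cells against 5 UMIs in all tumor cells, a ratio of 435 [152, 1517]. Itga4 was at 16.0 against 0.394 CPM, a ratio of 40.7 [17.0, 88.0], on 9 UMIs in 4 cells, and at 31.1% of its myeloid-like level, against 1.41% to 3.01% for the 4 myeloid genes. Those 4 cells had a median of 19960.5 UMIs and the others of 1003, and a part of doublets in this value was not tested. Itga5 had a ratio of 1.83 [1.36, 2.42], Itgb1 of 1.62 [1.4, 1.86] and Itgav of 1.29 [0.890, 1.82]. With thinned cells, which left 51 of these 98, Itga5 turned to 0.858 [0.175, 2.57] on 3 UMIs and Itgb1 to 0.943 [0.484, 1.66] on 12, and neither Itgb3 nor Itga4 had the UMIs for a call: Itgb3 had 3 UMIs against 0 in tumor cells and Itga4 had 0 in both. Rhox5 stood at 27.9% of its tumor level in these cells, and the median over members was 0.95 in log2 against 0.34 over all genes. The group itself was unstable: with a finer clustering it held 543 cells, and the ratios were then 25.7 for Itgb3 and 2.68 for Itga4.

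**Figure D5:**
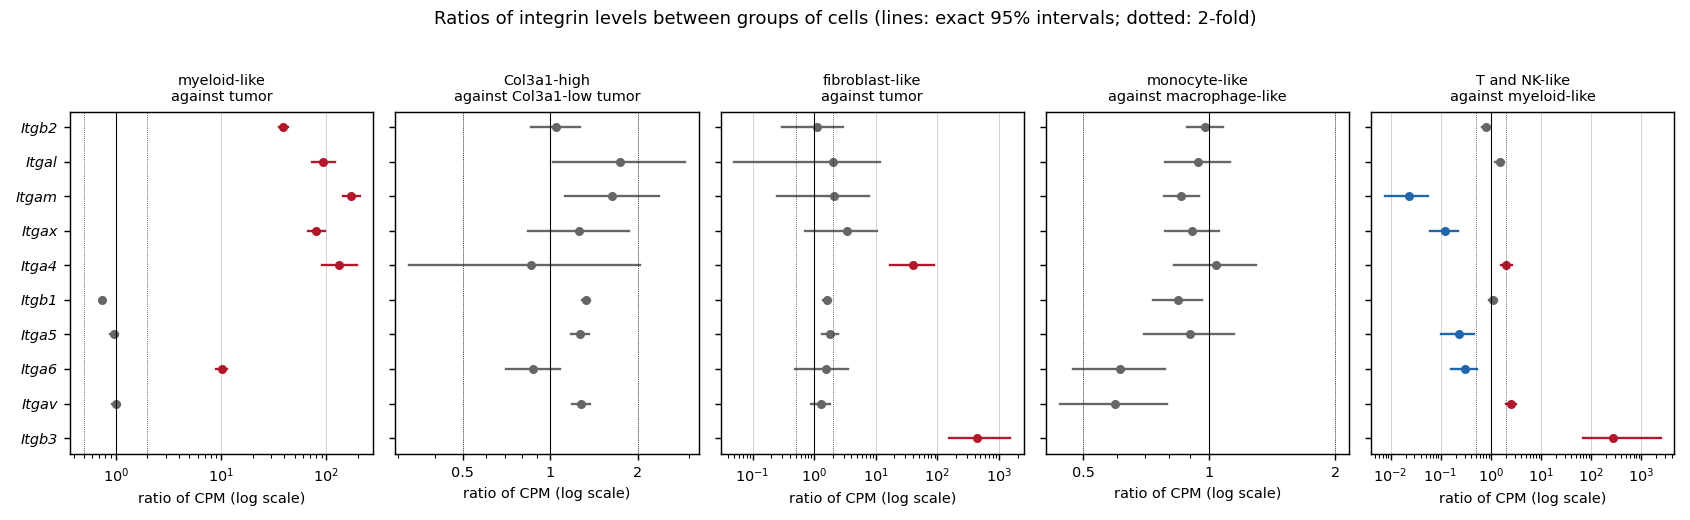
Ratios of member levels between groups on log axes with exact 95% intervals, for members with at least 20 UMIs, where red marks a call of higher, blue of lower, and dotted lines 2-fold. In the myeloid-like against tumor panel 6 members lie right of the line and Itga5 and Itgav sit at 0.964 and 1.01, and in the Col3a1 panel no member is called.

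Ordered over all 18 groups, few neighbors could be told apart. Of 17 neighboring pairs per gene, 2 had a ratio whose interval did not include 1 for Itga4, Itgal, Itgav, Itgb2 and Itgb3, 1 for Itga6, Itgam, Itgax and Itgb1, and 0 for Itga5. For Itgb2 the order broke between the DC-like cells (128 CPM) and the Malat1-high tumor cells (10.6), a ratio of 12.04 [5.92, 27.7], which splits leukocytes from all other groups, and between the Ctsk-high myeloid cells (214) and the Ncr1-high cells (132). For Itgav it broke between the Foxp3-high cells (280 CPM) and the Malat1-high tumor cells (181), and between the monocyte-like (28.4) and DC-like cells (4.49). For Itga6 the endothelial-like cells led at 221 CPM [137, 339], 2.80 times [1.63, 4.60] the next group. Itgb1 and Itgb3 had their highest levels in the endothelial-like cells too, at 548 CPM [410, 719] and 137 CPM [73.0, 234], on 52 and 13 UMIs. Neither was told apart from the next group, with ratios of 1.27 [0.929, 1.70] and 1.54 [0.659, 3.61]. Itgb3 had 0 UMIs in 11 of the 18 groups.

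Adaptors, ligands and other subunits were counted in the same comparisons. Between myeloid-like and tumor cells, where 21.1% of all genes were higher and 25.6% lower, 10 of 26 tested adaptors and partners were higher and 9 lower, 8 of 18 ligands higher and 8 lower, and 5 of 12 other subunits higher and 5 lower. The largest ratios upward were 130 for Parvg, the parvin of blood cells, 113 for F11r (JAM-A, a ligand of LFA-1) and 183 for Itga9, and downward 0.0706 for Fermt2 and 0.0891 for Itgb4. Fermt3, the kindlin of blood cells that activates Itgb2, was named after its values were seen: it was at 226 CPM in myeloid-like and 1.93 CPM in tumor cells, where Fermt2, the kindlin of other tissues, was at 3.49 and 49.5 CPM. In the fibroblast-like cells, beside 15.8% of all genes higher and 4.72% lower, 13 of 17 tested ligands were higher than in tumor cells and 0 lower, led by Lama2 at 815 times, and among the other subunits 6 of 12 were higher and 1 lower, led by Itga1 at 161 times. In the T and NK-like cells, beside 10.4% of all genes higher and 12.3% lower, 1 of 16 tested ligands was higher than in the myeloid-like cells and 5 were lower, with Thbs1 lowest at 0.0124.

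The genes whose levels followed a member most closely were looked up by Pearson's r of log levels over 16 groups among 10036 genes, as a description, since the groups share 1 library and differ in depth. For Itgb2 the closest was Pik3cg (r = 0.99), for Itgam Lair1 (0.98), for Itga4 Selplg (0.97), for Itgax Mgat4a (0.92), for Itgal H2afj (0.92), for Itga5 Mmp14 (0.92), for Itga6 Adam10 (0.91), for Itgav Ccdc174 (0.91), for Itgb1 Insig2 (0.91) and for Itgb3 Add1 (0.88). Between members, Itga4 and Itgb2 had the highest r (0.89), followed by Itgal and Itgb2 (0.75) and Itga4 and Itgal (0.74), and the lowest was that of Itgal and Itgb1 (-0.62).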

How the data were processed

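For 1 pool of 5 control tumors, the authors deposited raw UMI counts, which carry no normalization. Per the file headers Cell Ranger 5.0.1 made them, the methods name CellRanger V3 with GRCm38/mm10, and the submitters' notes add FastQC and Seurat. Here, cells under 200 genes or over 20% mitochondrial UMIs were dropped, as were doublets (0.8% per 1000 cells, scored by simulated doublets among 50 neighbors). Log values at 10000 UMIs per cell of 2000 variable genes, integrins left out, gave 30 principal components, a graph of 20 neighbors and Leiden clusters (resolution 0.5, then 1 within classes on 1000 genes and 15 components). A cluster took the name of a cell type when 3 or more listed markers were raised 2-fold (1.5-fold within classes). This rule was adjusted after the clusters had been seen. Cxcl9-high and Arg1-high macrophage-like cells were told by that gene alone, at 1.5 times its level in the other myeloid-like cells. Fosb-high and Retnla-high cells were named for a leading gene. Lymphocyte groups were named for whichever of Cd8a, Foxp3 and Ncr1 was highest relative to its UMIs in all kept cells. Tumor cells needed Shisal2b and Rhox5 at 5 times their myeloid level, and Col3a1-high clusters 2 times the Col3a1 of other tumor clusters. The members and lists were chosen with earlier results of these data known.

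CPM are summed UMIs per 1000000 of a group. Intervals are exact at 95% (Poisson for counts, conditional for ratios, Clopper-Pearson for shares), the limit at 0 is 3 counts, and a call needed 20 UMIs in the pair, a 2-fold ratio and an interval without 1. Likeness used genes of at least 50 UMIs on log2(CPM + 1). Beside the members, listed subunits, ligands and adaptors are named for the largest ratio in each direction or, for subunits, for at least 100 UMIs, and 1 ligand that this rule names is not reported here. The alternatives were other filters and clustering settings, levels averaged over cells, thinning to 1000 UMIs and a fold of 1.5. Calling, clustering and thinning were tested on simulated data. Versions were numpy 2.4.6 and scipy 1.17.1 for the statistics, igraph 0.11.9 and leidenalg 0.10.2 for clustering, and pandas 2.3.3, scikit-learn 1.9.0 and matplotlib 3.10.9 on Python 3.11.15.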

Additional observations from a re-analysis of the deposited data

Results flagged for a closer look

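The 667 cells left out for a mitochondrial share above 20% enter no comparison, and 9 of the 10 members were measured in them above the limit of 0.845 CPM that 3 of their 3552115 UMIs give. Their median depth was 4887 UMIs. Itgb1 was at 249 CPM, Itgav at 109 and Itga5 at 106 in these cells, and the leukocyte chains were lower, with Itgb2 at 18.02, Itgam at 11.8, Itgal at 7.32, Itgax at 6.48 and Itga4 at 5.91 CPM. Itga6 was at 12.95 CPM, and Itgb3 had 3 UMIs, which is the limit itself. Rhox5 was at 252 CPM, Lyz2 at 210 CPM and Malat1 at 42319 CPM in the same cells. Itgav and Itga5 were thus above their level in the kept tumor cells (45.4 and 48.6 CPM) and below that in the shallow Malat1-high tumor cells (181 and 180 CPM).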

How the results depend on the processing

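Of 10 counts of called members, 6 stayed within 1.5 times under each of the 13 planned and 3 added settings that gave a value. The count of members higher in fibroblast-like than in tumor cells, 2 as reported, was 5 at a mitochondrial share of 10% or less, 4 with at least 500 genes, with doublets kept, with 20 principal components or at a fold of 1.5, 1 with integrin genes allowed in clustering and 0 with thinned cells. For Col3a1-high against Col3a1-low tumor cells the count of higher members, 0 as reported, was 1 with integrin genes allowed and 2 at a fold of 1.5. For monocyte-like against macrophage-like cells the count of lower members, 0 as reported, was 1 with integrin genes allowed and 2 at a fold of 1.5 or with subclusters at a resolution of 0.5, a setting chosen after seeing the data, as were those without the shallow tumor and the shallow myeloid subcluster. For T and NK-like against myeloid-like cells the count of lower members went from 4 to 2 with thinned cells. Of 960 ratios recomputed 851 stayed within their counting interval, and 1 called ratio changed direction, that of Itga5 in DC-like against macrophage-like cells, from 0.335 to 1.12 with thinned cells. Of the 50 ratios with an interval that left out 1, another 6, none of them called, also crossed 1 under 1 setting each. With thinned cells these were Itga5 in Col3a1-high against Col3a1-low tumor cells (0.974), Itga5 and Itgb1 in fibroblast-like against tumor cells (0.858 and 0.943), Itgb1 in monocyte-like against macrophage-like cells (1.02) and Itgal in T and NK-like against myeloid-like cells (0.791), and at a Leiden resolution of 0.8 Itgam in Col3a1-high against Col3a1-low tumor cells (0.817). Thinning keeps 1000 UMIs a cell, so few UMIs stand behind its ratios in small groups. The cause of these moves was not tested. The Col3a1-high group held 9 cells at a Leiden resolution of 0.3 and 8 with 10 neighbors, too few for a call, and no monocyte-like cells were named with at least 500 genes. Depth limits the groups under 100 cells, where 1 to 20 UMIs stand behind many values. No paired analysis was possible because there is 1 sample.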

Other observations

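Other integrin chains marked some of the same small groups. Itgb7, the β chain that pairs with Itga4 and Itgae, was at 451 CPM [349, 574] in the Foxp3-high cells, 166 [131, 209] in the DC-like, 107 [66.1, 163] in the Ncr1-high and 42.3 [24.2, 68.8] in the Cd8a-high cells. Its partner Itgae (CD103) was at 101 CPM [73.7, 135] in the DC-like cells and 82.0 [42.4, 143] in the Foxp3-high cells, with 0 UMIs in the Cd8a-high, Ncr1-high and monocyte-like cells. Itga1, a collagen receptor chain that pairs with Itgb1, was at 178 CPM [124, 248] in the Ncr1-high, 127 [98.8, 160] in the fibroblast-like and 285 [188, 414] in the endothelial-like cells. Itgb5, a partner of Itgav, was at 250 CPM [242, 258] in the myeloid-like cells and had 2 UMIs in the T and NK-like cells.

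A subcluster of 50 shallow cells, led by the immunoglobulin and B cell genes Iglc2, Cd79a and Mzb1 and left without a name (median 934 UMIs), had Itga4 at 214 CPM [125, 343], Itgal at 151 [78.2, 264] and Itgav at 177 CPM [96.5, 296], on 12 to 17 UMIs each. The myeloid subcluster led by Ctsk, Mmp9 and Atp6v0d2, genes known from osteoclasts (283 cells, median 2105 UMIs, mitochondrial share 8.66%), held both Itgb3 UMIs of the myeloid-like cells and had Itgav at 74.8 CPM [58.2, 94.7] against 47.6 in the macrophage-like cells.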
